A study of Equus caballus with 23 samples.

Results

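Muscle of Arabian horses sampled after the intense gallop phase of race training (time point T1) was compared with muscle of untrained horses of the same breed (T0). All libraries labelled T1 or T0 were taken, which gave 13 of the 23 libraries of the series. T0 held 5 libraries (m8, m9, m10, m12 and m13) from 3 male and 2 female untrained horses at an age of 2.5 years. In T1 there were 8 libraries (m1 to m7 and m11) from horses aged 3 years that had finished the gallop work preceding the flat racing season, 4 male and 4 female. The other 10 libraries (T2, 7 male and 3 female, age 3 years) came from the end of that season and entered here through the shared estimate of spread and as side values. In every library the tissue was a needle biopsy of the gluteus medius, a propulsive muscle of the hindquarter, and RNA with an integrity number above 8.5 was sequenced. Age and training status changed together between T0 and T1 and cannot be told apart. The labels do not say whether 1 horse gave more than 1 library, and p-values here rest on how these libraries varied, which may be partly technical.

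Skeletal muscle mixes slow fibres, which contract slowly, resist fatigue and burn fat and lactate in many mitochondria, with fast fibres, which rely more on glycogen and glycolysis. Each fibre type uses its own versions of the myosin chains, troponins and calcium pump, so the balance of these transcripts reads the fibre programme of a biopsy. Repeated endurance work is known to raise mitochondrial enzymes and to shift fast fibres towards more oxidative forms, through calcium-dependent phosphatases and kinases and through nuclear receptors that control fuel genes. In a bulk biopsy, fewer fibres of a type and less RNA per fibre cannot be told apart.

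Levels are given in CPM, counts brought to a common library total after TMM scaling. A value named as a log2 change is the fitted T1 minus T0 difference, with its standard error (SE). T0 values are listed in the order m8, m9, m10, m12 and m13, and means are given ± SD over 5 T0 or 8 T1 libraries. A gene was called when its adjusted p, from edgeR's quasi-likelihood test with Benjamini-Hochberg adjustment over all 11545 genes tested, was below 0.05. The alternatives tried were 20 fits, 13 of which each left out 1 library.

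Total counts ran from 12604125 to 17477172 in T0 and from 15417737 to 23641809 in T1 (exact two-sided permutation p = 0.00932, adjusted p = 0.0269 over 4 library values). The 12 mitochondrially encoded protein genes took 39.5% ± 7.32 of counts in T0 and 48.6% ± 3.45 in T1 (exact permutation p = 0.0202, adjusted p = 0.0269). These 2 calls ended without T0 library m9 or m10, the mitochondrial one also without m13, each at an adjusted p of 0.07. T1 library m3 and T0 library m12 stood apart from their groups. In m3 the mean log2 CPM of slow minus fast sarcomere genes was 4.77 against 1.39 in m11, the next T1 library, while the other T1 libraries lay between -1.21 and 0.01. All T0 libraries were lower, between -4.14 and -2.28. Library m12 had 50.6% of its counts in mitochondrially encoded genes, where the other T0 libraries had 32.9% to 43.0%, and had the fewest genes with at least 10 counts (9823). With the mitochondrially encoded genes left out of the fit, 796 genes were called, against 798 with them. Both fits shared 782 calls in the same direction. The part of depth and of the share of the 10 most abundant genes in the results was not tested, nor was that of the mitochondrial share in any other way. Among defining genes of skeletal muscle fibres all 8 were present in every library, with summed levels of 39550 to 91090 CPM in T0 and 68120 to 116400 CPM in T1.

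**Figure D1:**
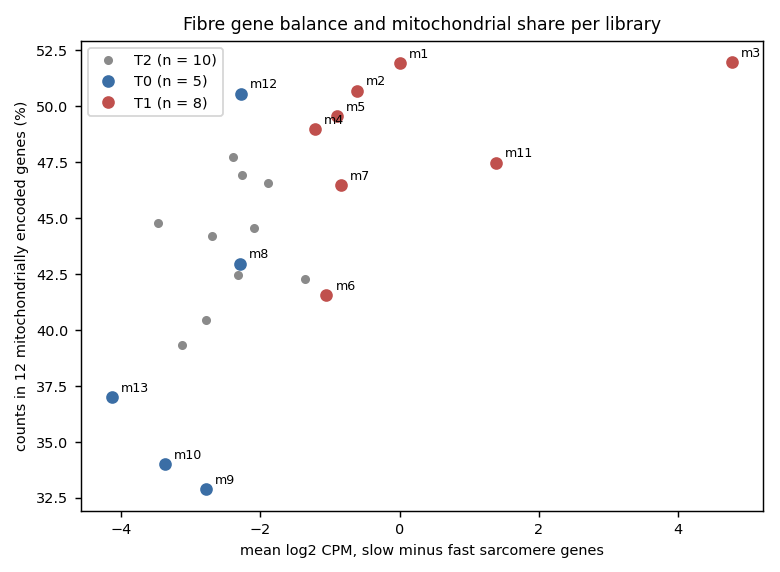
Each point is 1 library. The horizontal axis gives the mean log2 CPM of slow minus fast sarcomere genes and the vertical axis the percentage of counts in 12 mitochondrially encoded genes; T0, T1 and T2 are coloured. T1 libraries lie to the right of all T0 libraries, with m3 farthest right at 4.77 and m12 highest among T0 at 50.6%.

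Of the 11545 genes, 798 were called, which is 6.91% of those tested: 412 were higher in T1 (3.57%) and 386 lower (3.34%). These shares of all genes are set beside the counts of the gene groups below, whose members were chosen with earlier results of these data known. All list members come from the 8842 tested genes with a symbol, of which 353 were called higher and 275 lower. The median log2 change was 0.77 among the risen genes and -0.91 among the fallen ones, against -0.02 over all genes tested. Changes of more than 2-fold made up 147 of the rises and 166 of the falls. Every T1 library lay above every T0 library in 215 genes (1.86%) and below every T0 library in 129 genes (1.12%). Of the genes tested, 186 (1.61%) were both called and wholly above T0, and 97 (0.84%) called and wholly below. Library m3 held the highest T1 value in 53.9% of the risen genes and in 27.2% of all genes. It held the lowest T1 value in 40.4% of the fallen genes and in 26% of all genes. Leaving out m3 and m12 together gave 800 calls, of which 597 were shared in the same direction. Leaving out T0 library m10 gave 346 calls, of which 337 were shared, 204 higher and 142 lower. Without m11, 251 genes were lower. In a test of whether the T1 minus T0 difference depended on sex, edgeR called 0 of 11545 genes, and 483 (4.18%) had an unadjusted p under 0.05.

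**Figure D2:**
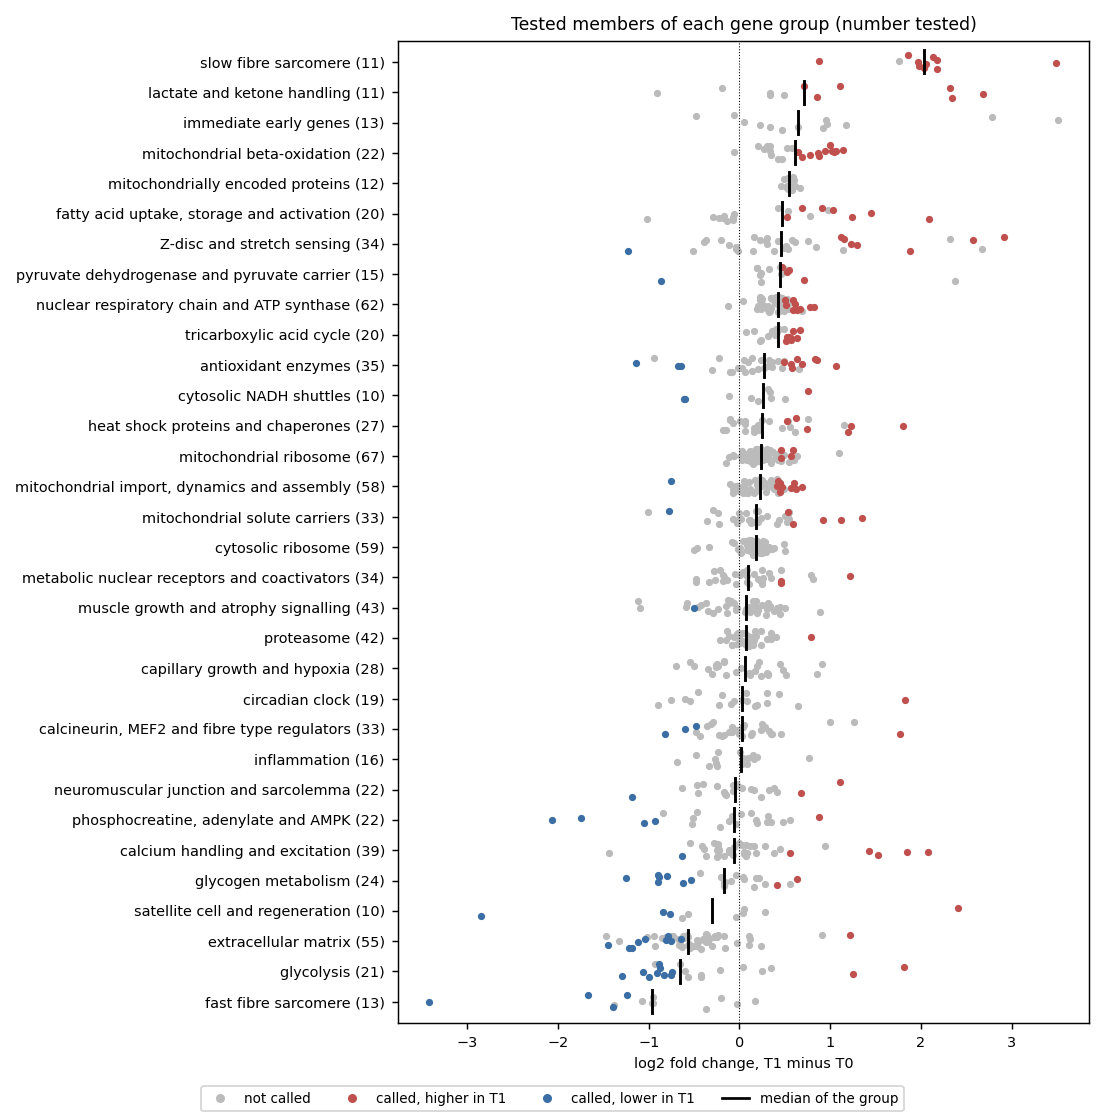
Each point is a tested gene, placed by its log2 change (T1 minus T0, horizontal axis) in its gene group (vertical axis, number tested in parentheses); red points were called higher, blue points called lower, grey points not called, and the black bar is the group's median. The medians run from 2.03 for slow fibre sarcomere genes to -0.96 for fast fibre sarcomere genes.

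Slow fibre sarcomere genes rose after the gallop phase in all but 1 case. Of 11 tested, 10 rose and 0 fell, with a median log2 change of 2.03 against -0.02 over all genes, and 7 to 10 rose when single libraries were left out. The member that did not pass, named after its value was seen, was MYL6B, a slow myosin light chain (log2 change 1.76, adjusted p = 0.2). In 5 of the 11 genes all T1 libraries exceeded all T0 libraries, where 1.86% of all genes did so.

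MYL2, the regulatory light chain of slow and cardiac myosin (ENSECAG00000007867, chromosome 8, 21089435 to 21096156 in the authors' tables, build not given in the sources used here), had 1619, 1324, 1278, 3444 and 751 CPM in the T0 libraries. Its T1 values ran from 3998 (m6) over a median of 5133 to 21559 (m3), so the groups did not overlap. The log2 change was 2.14 ± 0.42 (SE, adjusted p = 0.00396). TNNI1, the slow troponin inhibitory subunit, had 331, 280.2, 245, 744 and 346 CPM in T0 and T1 values from 895 (m4) over a median of 1399 to 4899 (m3). Here too each T1 library stood above each T0 library, m12 was the highest of T0, and the log2 change was 2.18 ± 0.44 (SE, adjusted p = 0.00462). MYH7B, an ancient slow-type myosin heavy chain, showed a smaller spread: 39.1, 32.6, 30.4, 28.8 and 22.3 CPM in T0 against values from 63.7 (m1) over a median of 110.1 to 204 (m3) in T1, a log2 change of 1.98 ± 0.38 (adjusted p = 0.0039). For TNNC1, the calcium-binding troponin of slow and cardiac muscle, T0 library m12 (3114 CPM) reached into the T1 range, which ran from 2622 (m4) over a median of 3641 to 15688 (m3) CPM. Its log2 change was 2.03 ± 0.46 (adjusted p = 0.00928), and without m12 it was larger (2.63, adjusted p = 0.00171).

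MYH7, the slow myosin heavy chain, had 4947, 7654, 4039, 18933 and 5666 CPM in T0 and values from 15834 (m4) over a median of 25549 to 66049 (m3) in T1, so that m12 overlapped with T1. The log2 change was 1.86 ± 0.48 (adjusted p = 0.0197), and the call ended without m8 (1.73, adjusted p = 0.0501), m10 (1.69, adjusted p = 0.0702) or m13 (1.75, adjusted p = 0.0518). MYLK3, the cardiac-type kinase that phosphorylates the MYL2 light chain, belonged to no list and was among the 4 named genes with the smallest adjusted p. It had 23, 15.3, 17.8, 26.9 and 9.73 CPM in T0 and from 44.6 (m5) over a median of 60.8 to 76.4 (m3) in T1. The groups were apart and m3 did not stand out, with 74.5 CPM in the next library, and the log2 change was 1.72 ± 0.24 (SE, adjusted p = 0.000523).

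**Figure D3:**
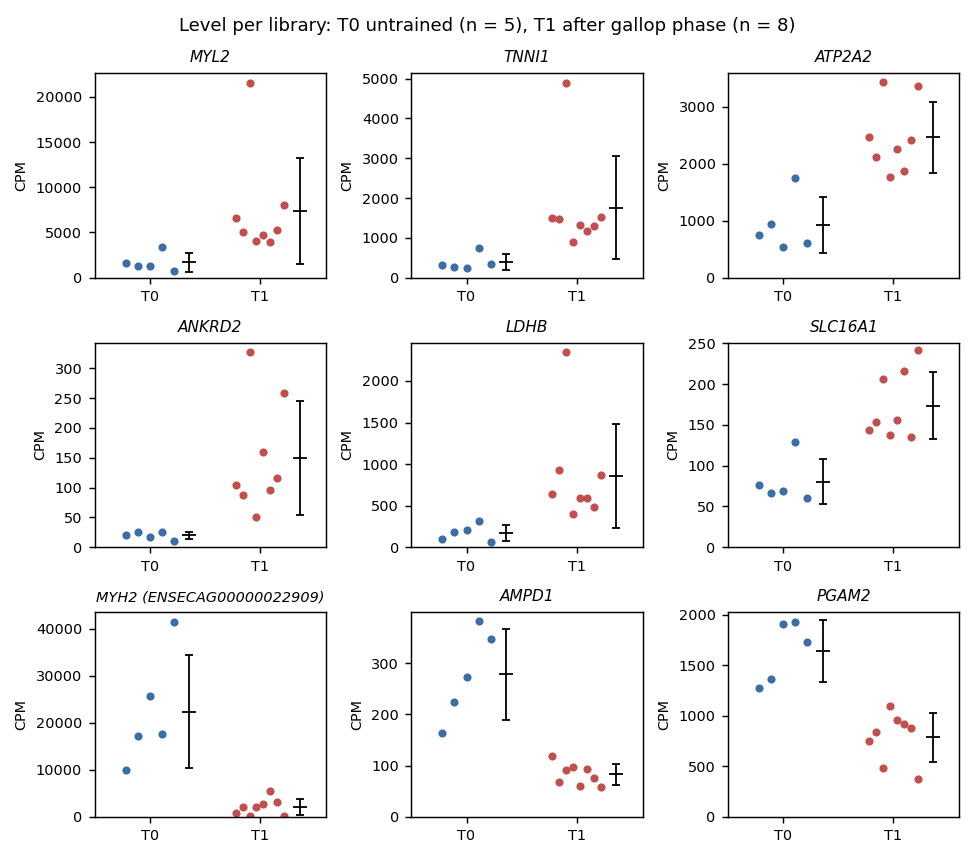
Points are single libraries (T0 blue, T1 red, in CPM on linear axes from 0) and black bars are the mean ± SD. MYL2, TNNI1, ATP2A2, ANKRD2, LDHB and SLC16A1 are higher in all T1 libraries than in any T0 library, and MYH2 (ENSECAG00000022909), AMPD1 and PGAM2 are lower in all of them.

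Fast fibre sarcomere genes were lower in T1 by median, at a log2 change of -0.96. Of 13 tested, 4 fell, 0 rose and 9 did not pass. The 4 were 1 of 2 identifiers named MYH2, ACTN3, TPM1 and MYL1. The count was 1 without m13 or with only T0 and T1 in the fit, and 2 without m10 or m11 or with no count filter, and 5 without m3 and m12 together.

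The MYH2 identifier that fell (ENSECAG00000022909, chromosome 11, 52973970 to 52998897) encodes a fast myosin heavy chain. It had 10011, 17094, 25744, 17613 and 41411 CPM in T0, while its T1 values ran from 82.2 (m3) over a median of 2112 to 5509 (m6) CPM. All T1 libraries were below all T0 libraries, with a log2 change of -3.42 ± 0.64 (adjusted p = 0.00364). Its neighbour of the same symbol (ENSECAG00000024667) had a log2 change of 0.17 ± 0.51 (adjusted p = 0.892), and how short reads were divided between these close paralogs is uncertain. In m3 both were low, at 82.2 and 293 CPM. ACTN3, the fast fibre alpha-actinin, had 851, 1510, 2250.4, 2714 and 3497 CPM in T0 and values from 90 (m3) over a median of 762 to 1184 (m6) in T1. Only m8 among the T0 libraries lay within the T1 range. The log2 change of -1.67 ± 0.42 (adjusted p = 0.018) lost its call without m13 (-1.43, adjusted p = 0.0601) and with only T0 and T1 in the fit (-1.67, adjusted p = 0.0597). MYLPF, the fast regulatory light chain, did not pass, with a log2 change of -0.96 ± 0.38 (adjusted p = 0.131), although its T1 values, from 217 (m3) over a median of 3212 to 3800.5 (m6) CPM, were all below its T0 values of 3861, 4152, 5882, 6725 and 5465 CPM.

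Genes of the Z-disc, the plate that anchors thin filaments, and of stretch sensing rose in 7 of 34 cases and fell in 1, with a median log2 change of 0.46. The count of 7 was 11 in DESeq2, and 12 without m12 or without m3 and m12 together. The 1 that fell, PDLIM7, became 0 without m10 or m13 or with no count filter, and 2 without m8 or in DESeq2. ANKRD2, a stretch-responsive ankyrin repeat protein (ENSECAG00000008916, chromosome 1, 31708700 to 31718433), had 21.2, 25.7, 17.8, 24.8 and 9.79 CPM in T0 and values from 50.1 (m4) over a median of 110 to 327 (m3) in T1. All T1 libraries were above all T0 libraries, with m3 and m11 highest, and the log2 change was 2.91 ± 0.50 (adjusted p = 0.00204). LMOD2, a leiomodin that lengthens thin filaments in striated muscle, had 231, 217, 145, 539 and 246 CPM in T0 and from 612 (m4) over a median of 784 to 1798 (m6) in T1, a log2 change of 1.88 ± 0.34 (adjusted p = 0.00256). ACTN2, the alpha-actinin found in all fibres, had 739, 1078, 511, 1218 and 605 CPM in T0 and from 1529 (m4) over a median of 1797 to 2192 (m11) in T1. The T1 libraries formed a narrow band above the T0 libraries, with a log2 change of 1.15 ± 0.23 (adjusted p = 0.00397). Outside the list, the actin regulators TWF2, a twinfilin, and MICAL2, an actin-oxidizing enzyme, moved in opposite directions without overlap of the groups. TWF2 had 48.7, 49.1, 40.4, 35.7 and 33 CPM in T0 and from 66.2 (m4) over a median of 80.8 to 164 (m3) in T1 (log2 change 1.15 ± 0.18, adjusted p = 0.00108). MICAL2 had 19, 17.8, 50.1, 18.7 and 87.2 CPM in T0, where m10 and m13 were highest, and from 1.47 (m1) over a median of 3.32 to 10.8 (m5) in T1 (log2 change -3.21 ± 0.60, adjusted p = 0.00378).

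Genes of calcium handling and excitation did not move together: 5 of 39 rose, 1 fell and the median log2 change was -0.06. Over all genes tested 3.57% rose and 3.34% fell. Among the 5 were PLN, ATP2A2, S100A1 and CASQ2, and the 1 that fell was CASQ1. CASQ2, the calcium store protein of slow and cardiac muscle, lost its call in 8 of the 20 alternatives, among them without m3 (1.25, adjusted p = 0.0546) and without m3 and m12 together (1.16, adjusted p = 0.0937). CASQ1, its fast fibre relative, lost it in 4, among them without m3 and m12 together (-0.55, adjusted p = 0.0589). S100A1, a calcium sensor, had a log2 change of 2.08 ± 0.50 (adjusted p = 0.0161), which was smaller without m3 (1.48, adjusted p = 0.0169). The count of 1 that fell was 0 without m10, m12 or m13, and 2 without m3 or m6. The count of 5 was 3 without m8, m10, m11 or m13 or with only T0 and T1 in the fit. ATP2A2, the calcium pump of slow fibres (ENSECAG00000007671, chromosome 8, 21486134 to 21540354), had 745, 939, 538, 1754 and 613 CPM in T0 and from 1777 (m4) over a median of 2337 to 3441 (m3) in T1. The T0 library m12 was just below the lowest T1 library, and the log2 change was 1.43 ± 0.33 (adjusted p = 0.0111). PLN, phospholamban, which restrains that pump, had 45.1, 39, 35.8, 86.5 and 19.6 CPM in T0 and from 89 (m4) over a median of 118 to 319 (m3) in T1, a log2 change of 1.85 ± 0.36 (adjusted p = 0.00397). The pump of fast fibres, ATP2A1, had 3112, 5219, 5609.7, 5456 and 9183 CPM in T0 and from 39.1 (m3) over a median of 2373 to 3104 (m6) in T1, with 1002 in the second lowest T1 library. Its groups did not overlap, but its log2 change of -1.44 ± 0.49 (adjusted p = 0.0757) did not pass. Without m3 it passed (-1.24, adjusted p = 0.00846), as it did without m3 and m12 together (-1.25, adjusted p = 0.0111).

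Among regulators of fibre type in the calcineurin and MEF2 pathway, 1 of 33 rose and 3 fell, with a median log2 change of 0.03. Over all genes tested 3.57% rose and 3.34% fell. The 3 that fell were PPP3CA, SOX6 and CAMK2G, and that count was 0 without m10 or m13, and 1 without m1, m2, m9 or m11, with no count filter or with only T0 and T1 in the fit. The gene that rose was RCAN2, a feedback regulator of the phosphatase calcineurin, with 4.46, 4.7, 7.58, 5.51 and 2.76 CPM in T0 and from 8.36 (m4) over a median of 14.9 to 29.8 (m3) in T1. All T1 libraries were above all T0 libraries, and the log2 change was 1.77 ± 0.31 (adjusted p = 0.00225). NFATC1, the transcription factor that calcineurin activates, did not pass (log2 change -0.08 ± 0.27, adjusted p = 0.909).

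Of 21 genes of glycolysis, 9 fell after the gallop phase and 2 rose, with a median log2 change of -0.66. The 9 were ALDOA, TPI1, GAPDH, PGK1, PGAM2, ENO3, PKM, GPI and LDHA, and the 2 were PFKFB2 and PFKL, which act at the phosphofructokinase step. In 6 of the 21 all T1 libraries were below all T0 libraries, against 1.12% of all genes. The count of 9 was 2 without m10, and 5 without m13 or with only T0 and T1 in the fit, while it was 6 without m3 and m12 together. PGAM2, the muscle phosphoglycerate mutase (ENSECAG00000005539, chromosome 4, 14899830 to 14902445), had 1277, 1366, 1909.5, 1926 and 1734 CPM in T0 and from 372 (m11) over a median of 861 to 1095 (m4) in T1. Its groups were apart, with a log2 change of -1.06 ± 0.23 (adjusted p = 0.00731). ENO3, the muscle enolase, had 3504, 3965, 5472, 5153 and 5029.6 CPM in T0 and from 954 (m11) over a median of 2462 to 3073 (m6) in T1, again without overlap, and a log2 change of -1.0 ± 0.23 (adjusted p = 0.0109). PFKFB2, the heart-type enzyme that makes the activator of phosphofructokinase, had 13.8, 16.9, 12.3, 7.74 and 5.4 CPM in T0 and from 31.4 (m6) over a median of 38.4 to 56.2 (m2) in T1. Each T1 library exceeded each T0 library, and m3 was not among the 2 highest, 56.2 in m2 and 47.8 in m11. The log2 change was 1.81 ± 0.33 (adjusted p = 0.00261). PFKL, the liver-type phosphofructokinase, had 9.09, 7.5, 8.15, 7.42 and 5.85 CPM in T0 and from 11.6 (m2) over a median of 12.9 to 41.6 (m3) in T1 (log2 change 1.25 ± 0.27, adjusted p = 0.00707), while PFKM, the muscle type, did not pass (log2 change -0.66 ± 0.24, adjusted p = 0.0949).

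In glycogen metabolism 7 of 24 genes fell and 2 rose, with a median log2 change of -0.17. The 2 were GBE1, the branching enzyme, and EPM2A, laforin, and that count was 0 without m8 or m13, and 1 without m1, m2, m3, m4, m5, m6, m7, m9, m10 or m11 or with no count filter. The 7 that fell became 1 without m13, 3 without m10, and 4 without m11. PPP1R3A, which holds a phosphatase on the glycogen particle, had 429, 404, 618, 523 and 676 CPM in T0 and from 147 (m3) over a median of 311 to 353 (m1) in T1. The T1 libraries were all below the T0 libraries, with a log2 change of -0.89 ± 0.19 (adjusted p = 0.00575). PYGM, the muscle glycogen phosphorylase, averaged 4530.4 ± 1925 CPM in T0 against 2438 ± 557 CPM in T1 (log2 change -0.89 ± 0.23, adjusted p = 0.0218). Its call ended without m13 (-0.62, adjusted p = 0.114) and without m3 and m12 together (-0.78, adjusted p = 0.0545).

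Lactate and ketone handling rose in 6 of 11 genes and fell in 0, with a median log2 change of 0.71, and 4 to 6 rose when single libraries were left out. The 6 were SLC16A1, SLC16A7, LDHB, LDHD, BDH1 and ACAT1. LDHA, which fell, was counted under glycolysis and not in this list. SLC16A1, a plasma membrane carrier of lactate and other monocarboxylates, had 76.8, 66.6, 69.3, 129 and 59.8 CPM in T0 and from 135 (m7) over a median of 155 to 241 (m11) in T1. Library m12 was the highest of T0 and still below all T1 libraries, and the log2 change was 1.11 ± 0.21 (adjusted p = 0.00292). SLC16A7, a carrier of the same family with a high affinity for pyruvate, had 5.82, 4.32, 5.31, 0.742 and 0.731 CPM in T0 and from 8.49 (m6) over a median of 16 to 38.7 (m11) in T1. Its log2 change was 2.34 ± 0.46 (adjusted p = 0.00444). SLC16A3, the carrier typical of glycolytic fibres, did not pass (log2 change -0.91 ± 0.44, adjusted p = 0.226).

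The lactate dehydrogenase genes differed in direction. LDHB, the subunit of oxidative muscle and heart, had 95.7, 178, 205, 313 and 65.8 CPM in T0 and from 398 (m4) over a median of 618 to 2345 (m3) in T1, with 929 in the second highest library. All T1 libraries were above all T0 libraries (log2 change 2.32 ± 0.44, adjusted p = 0.00367). LDHD, the mitochondrial enzyme for the mirror-image form of lactate, had 39.4, 41.7, 42, 26 and 26.9 CPM in T0 and from 40.6 (m1) over a median of 63.8 to 79.7 (m2) in T1, a log2 change of 0.86 ± 0.20 (adjusted p = 0.0118). LDHA, the subunit of glycolytic muscle, had 1106, 1428, 2579, 1552 and 2373 CPM in T0 and from 179 (m3) over a median of 881 to 1026 (m6) in T1 (log2 change -1.30 ± 0.33, adjusted p = 0.0175). Its call ended without m10 (-1.12, adjusted p = 0.0717) and with only T0 and T1 in the fit (-1.30, adjusted p = 0.0562).

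In energy buffering by phosphocreatine and adenylates, with the AMP-activated kinase, 4 of 22 genes fell and 1 rose, around a median log2 change of -0.06. The 4 were AMPD1, GATM, PRKAB2 and PRKAG3, a count that was 2 without m1, m2, m3, m7, m10, m11 or m13, with no count filter or with only T0 and T1 in the fit. AMPD1, the muscle AMP deaminase (ENSECAG00000014907, chromosome 5, 54062569 to 54083314), had 163, 224, 273, 384 and 348 CPM in T0 and from 59.1 (m11) over a median of 83.8 to 118 (m1) in T1. The highest T1 library was below the lowest T0 library, and m3 lay inside the T1 range, at 91.1 CPM. Its log2 change of -1.74 ± 0.25 (adjusted p = 0.000523) had the smallest adjusted p of all genes tested, shared with MYLK3, PRRX1 and DNAJA4. GATM, which makes the precursor of creatine, had 5.12, 16.2, 26.1, 5.3 and 19.2 CPM in T0, where m8 and m12 were lowest, and from 1.83 (m11) over a median of 3.31 to 4.77 (m6) in T1 (log2 change -2.06 ± 0.40, adjusted p = 0.00391). The count that rose was 2 without m8. The gene that rose in the main comparison was AK3, an adenylate kinase of the mitochondrial matrix, with 82.1, 91.9, 82.4, 113 and 78.3 CPM in T0, from 124 (m5) over a median of 144 to 241 (m3) in T1 and a log2 change of 0.87 ± 0.16 (adjusted p = 0.00319). CKM, the cytosolic muscle creatine kinase, did not pass (log2 change 0.48 ± 0.27, adjusted p = 0.312).

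Mitochondrial beta-oxidation, the stepwise breakdown of fatty acids, rose in 11 of 22 genes and fell in 0 (ACADS, ACADM, ACADVL, HADH, HADHA, ACAA2, ETFB, ETFDH, ACOT13, CPT1B and CPT2 rose), with a median log2 change of 0.61, and 10 to 13 rose when single libraries were left out. In 6 of the 22 genes all T1 libraries exceeded all T0 libraries, against 1.86% of all genes. HADHA, the alpha subunit of the trifunctional protein (ENSECAG00000015725, chromosome 15, 69881059 to 69927637), had 226, 235, 198, 285 and 207 CPM in T0 and from 285 (m6) over a median of 401 to 610.2 (m3) in T1. The lowest T1 library, m6, and the highest T0 library, m12, lay next to each other, and the log2 change was 0.88 ± 0.17 (adjusted p = 0.00349). ETFDH, which hands electrons from fatty acid oxidation to ubiquinone, had 71.5, 73.7, 66, 81.1 and 63.3 CPM in T0 and from 91 (m6) over a median of 113 to 124 (m7) in T1 (log2 change 0.65 ± 0.12, adjusted p = 0.00343). CPT1B and CPT2 carry long-chain fatty acids into mitochondria. CPT1B had 64.9, 64.1, 36.2, 37.9 and 45.5 CPM in T0 and from 64.8 (m6) over a median of 99.4 to 161 (m3) in T1, so its groups touched between m8 and m6, and its log2 change was 1.04 ± 0.23 (adjusted p = 0.00841). CPT2 rose by a log2 change of 1.0 ± 0.19 (adjusted p = 0.00349).

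Fatty acid uptake, storage and activation rose in 7 of 20 genes and fell in 0, with a median log2 change of 0.47. Of the 20 log2 changes 11 were above 0, where 47.3% of all genes tested were above 0. The 7 became 3 without m3 and m12 together, and 4 without m10 or m11. FABP3, the fatty acid binding protein of heart and slow muscle, had 136, 136, 75.3, 136 and 68.4 CPM in T0 and from 134 (m6) over a median of 339 to 1215 (m3) in T1. Library m6 lay within the T0 range, and the log2 change was 2.09 ± 0.43 (adjusted p = 0.00518). PLIN2, a lipid droplet coat protein, had 28.4, 26.4, 22.1, 42.7 and 35.4 CPM in T0 and from 36.6 (m2) over a median of 80.5 to 151 (m11) in T1 (log2 change 1.45 ± 0.32, adjusted p = 0.00901). CD36, the fatty acid transporter of the cell surface, did not pass (0.98 ± 0.32, adjusted p = 0.0647); it passed without m6 (1.08, adjusted p = 0.0333), without m12 (1.13, adjusted p = 0.0487) and in DESeq2 (0.98, adjusted p = 0.0194).

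Pyruvate dehydrogenase and pyruvate carrier genes rose in 4 of 15 cases (PDHA1, PDK3, PDK2 and MPC2) and fell in 1 (PC), with a median log2 change of 0.45. The 4 became 1 without m10 or m13, and 2 without m9 or with only T0 and T1 in the fit. The count of 1 that fell was 0 without m1, m2, m3, m4, m9, m10, m11 or m13, with no count filter or with only T0 and T1 in the fit. PDHA1, the catalytic subunit, had 403, 393, 341, 448 and 367 CPM in T0 and from 512 (m11) over a median of 579 to 611 (m7) in T1, a tight band above T0, and a log2 change of 0.55 ± 0.13 (adjusted p = 0.00972). PDK4, the kinase that closes pyruvate dehydrogenase in fasting and exercise, had 3.24, 1.47, 2.16, 40.6 and 3.26 CPM in T0 and from 1.14 (m2) over a median of 10.8 to 228 (m6) in T1. Library m12 in T0 and m6 in T1 were far above the rest of their groups, and the log2 change of 2.38 ± 1.51 (adjusted p = 0.389) did not pass.

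In the tricarboxylic acid cycle 8 of 20 genes rose and 0 fell, the log2 changes of all 20 were above 0, and their median was 0.42. The 8 became 1 without m10, 4 without m13, and 5 without m8 or with only T0 and T1 in the fit. Without m3 and m12 together 12 rose. Among the 8 were CS, IDH2, IDH3B, DLST, SUCLG2, SDHB and NNT. SDHB, the iron-sulfur subunit of succinate dehydrogenase, had 403, 348, 327, 387 and 265 CPM in T0 and from 449 (m11) over a median of 539.6 to 689.6 (m3) in T1, without overlap (log2 change 0.67 ± 0.15, adjusted p = 0.00731). CS, citrate synthase, often used as a measure of mitochondrial content, had 322, 366, 301, 421 and 355 CPM in T0 and from 406 (m3) over a median of 535 to 592 (m5) in T1. Here m3 was the lowest of T1, and it fell within the T0 range. The log2 change was 0.57 ± 0.14 (adjusted p = 0.0127), and without m10 it did not pass (0.52, adjusted p = 0.0507). MDH1, the cytosolic malate dehydrogenase of the malate-aspartate shuttle, had 726, 595, 617, 733 and 366 CPM in T0 and from 853 (m7) over a median of 967 to 1426 (m3) in T1 (log2 change 0.76 ± 0.18, adjusted p = 0.0143). Of the 10 genes of the NADH shuttles it was the 1 that rose, while GPD1 and GPD2 of the glycerol phosphate shuttle fell. That count of 2 was 0 without m10 or m13 or without m3 and m12 together, and 1 without m1, m2, m3, m4, m5, m7, m11 or m12, with median ratio size factors or with no count filter, and the count of 1 that rose was 2 without m3 or without m3 and m12 together.

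Nuclear genes of the respiratory chain and ATP synthase rose in 9 of 62 cases and fell in 0. Of the 62 log2 changes 61 were above 0, with a median of 0.43, where 47.3% of all genes tested were above 0. Ribosomal proteins leaned the same way, with 63 of 67 mitochondrial and 53 of 59 cytosolic ones above 0. Without m3 the respiratory chain median was 0.33. The count of 9 was 1 without m10, 2 without m9 or m13, 4 without m1, m5 or m7 or with only T0 and T1 in the fit, 5 without m2, 15 without m11 or with sex as a covariate, 17 without m12 or without m3 and m12 together, and 23 in DESeq2. NDUFA10, a subunit of complex I, had 256, 272, 213, 309 and 246 CPM in T0 and from 321 (m11) over a median of 368 to 416 (m5) in T1, without overlap (log2 change 0.50 ± 0.14, adjusted p = 0.0279). Its call ended without m10 (0.45, adjusted p = 0.0854) or m13 (0.49, adjusted p = 0.0631).

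For the mitochondrially encoded proteins the calls changed with 1 library. Of 12 genes 0 passed in edgeR, although 11 had an unadjusted p under 0.05 with higher levels in T1 and 2 rose in DESeq2. Among the alternatives, that count of 11 was 1 with only T0 and T1 in the fit, 5 without m1, and 7 without m2 or m3. It was 12 with no count filter or without m3 and m12 together. All 12 passed without m12, with a median log2 change of 0.89 in place of 0.55, and all 12 passed without m3 and m12 together, with a median of 0.84. COX1, a catalytic subunit of cytochrome c oxidase, had 115125, 88136, 88828, 249587 and 107717 CPM in T0 and from 136224 (m6) over a median of 195686 to 309733 (m3) in T1. Library m12 was above the T1 median and the other T0 libraries were below all T1 libraries. The log2 change of COX1 was 0.67 ± 0.25 (adjusted p = 0.104), and it passed without m12 (1.05, adjusted p = 0.00365), without m3 and m12 together (0.95, adjusted p = 0.00268) and in DESeq2 (0.67, adjusted p = 0.0236).

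Factors of mitochondrial import, dynamics and assembly rose in 9 of 58 cases and fell in 1, TOMM34, with a median log2 change of 0.23. The 9 became 3 without m10, 4 without m13, 5 without m9, and 15 in DESeq2. The call of TOMM34 ended without m10 (-0.69, adjusted p = 0.0607) or m13 (-0.55, adjusted p = 0.0781). TOMM40, the import pore of the outer membrane, had 13.2, 11.5, 13, 12 and 9.95 CPM in T0 and from 15.2 (m1) over a median of 17.1 to 24.3 (m3) in T1 (log2 change 0.60 ± 0.14, adjusted p = 0.00985). PHB, the inner membrane scaffold prohibitin, had 54.6, 49.2, 53.2, 55.2 and 44.8 CPM in T0 and from 61.2 (m11) over a median of 66.9 to 84.3 (m3) in T1 (log2 change 0.42 ± 0.10, adjusted p = 0.0113). Both were above T0 in every T1 library. VWA8, a mitochondrial ATPase that no list held, had 46.3, 52, 42.9, 51.6 and 43.3 CPM in T0 and from 71.1 (m6) over a median of 86.4 to 94.9 (m3) in T1, a log2 change of 0.83 ± 0.13 (adjusted p = 0.00108) with a wide gap between the groups. Mitochondrial ribosomal proteins rose in 4 of 67 cases, beside 3.57% of all genes tested, and fell in 0, with a median log2 change of 0.24. The 4 became 0 without m10, 1 without m1, m3, m8, m9 or m13 or with only T0 and T1 in the fit, 2 without m2 or m4, and 8 in DESeq2. Of the 59 cytosolic ribosomal proteins edgeR and DESeq2 called 0, and 1 in each direction had an unadjusted p under 0.05 in edgeR. Their median log2 change was 0.18, with 53 above 0, and the median was -0.07 without m3. The count that fell was 1 without m9.

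Mitochondrial solute carriers of the SLC25 family rose in 5 of 33 cases and fell in 1, with a median log2 change of 0.19, and the 5 became 1 without m10, and 3 with only T0 and T1 in the fit or without m3 and m12 together. SLC25A21, the carrier of oxodicarboxylates, had 1.76, 2.18, 2.47, 1.27 and 1.29 CPM in T0 and from 2.61 (m6) over a median of 3.41 to 9.81 (m3) in T1, with m3 and m11 highest (log2 change 1.35 ± 0.32, adjusted p = 0.0113). The carrier that fell was SLC25A17, a peroxisomal member of the family, with 3.64, 3.8, 5.1, 3.29 and 4.05 CPM in T0, from 1.89 (m2) over a median of 2.31 to 3 (m1) in T1 and a log2 change of -0.77 ± 0.18 (adjusted p = 0.00913).

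Of 34 metabolic nuclear receptors and coactivators, 3 rose (ESRRB, ESRRA and SIRT3) and 0 fell, with a median log2 change of 0.10. Over all genes tested 3.57% rose and 3.34% fell. The 3 became 1 without m9 or m10, and 5 in DESeq2. ESRRB, an estrogen-related receptor (ENSECAG00000011167, chromosome 24, 21917431 to 22062165), was scarce, with 1.06, 0.902, 1, 1.38 and 0.394 CPM in T0 and from 1.72 (m6) over a median of 2.07 to 3.22 (m11) in T1. All T1 libraries were above all T0 libraries, with a log2 change of 1.21 ± 0.25 (adjusted p = 0.00528). ESRRA, the more abundant relative, had 129.5, 128, 111, 163 and 140.4 CPM in T0 and from 168 (m1) over a median of 186 to 203 (m7) in T1, also without overlap (log2 change 0.45 ± 0.12, adjusted p = 0.0233). Its call ended without m9 (0.44, adjusted p = 0.053) or m10 (0.40, adjusted p = 0.0823). PPARGC1A, the coactivator best known for mitochondrial growth, had 23.6, 16.4, 21.3, 20.2 and 14.3 CPM in T0 and from 13.4 (m3) over a median of 24.4 to 28.4 (m11) in T1 and did not pass (log2 change 0.25 ± 0.50, adjusted p = 0.83). PPARA, the receptor of fatty acid oxidation, did not pass either (log2 change 0.79 ± 0.27, adjusted p = 0.0798); it passed in DESeq2 (0.79, adjusted p = 0.0386) and with only T0 and T1 in the fit (0.78, adjusted p = 0.0261).

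Heat shock proteins and chaperones rose in 6 of 27 cases and fell in 0, with a median log2 change of 0.25, and 5 to 7 rose when single libraries were left out. DNAJA4, a co-chaperone of the HSP40 family (ENSECAG00000023807, chromosome 1, 115897064 to 115906426), had 26.8, 31.9, 29, 26.6 and 25.4 CPM in T0 and from 53.8 (m7) over a median of 61.1 to 82.2 (m3) in T1. The T0 libraries lay close together and all T1 libraries were above them, with a log2 change of 1.2 ± 0.16 (adjusted p = 0.000523). CRYAB, a small heat shock protein that binds desmin and titin, had 483, 531, 529.8, 620.2 and 451 CPM in T0 and from 889 (m2) over a median of 1154 to 1899 (m3) in T1 (log2 change 1.23 ± 0.22, adjusted p = 0.00246). HSPD1, the mitochondrial chaperonin, had 126, 124, 108, 133 and 99 CPM in T0 and from 157 (m6) over a median of 179 to 230.1 (m3) in T1 (log2 change 0.62 ± 0.12, adjusted p = 0.00381). WIPI1, which marks forming autophagosomes and belonged to no list, had 32.1, 32.9, 31, 30.9 and 30.4 CPM in T0, a narrow T0 range, and from 40.1 (m4) over a median of 50.9 to 67.7 (m11) in T1 (log2 change 0.77 ± 0.12, adjusted p = 0.00108).

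Antioxidant enzymes moved in both directions: 8 of 35 rose and 3 fell, with a median log2 change of 0.27, and the 8 became 5 without m10. TXNRD1, the cytosolic thioredoxin reductase, had 17.4, 16.6, 14.3, 13 and 14.3 CPM in T0 and from 19.4 (m3) over a median of 24.5 to 31.1 (m11) in T1 (log2 change 0.69 ± 0.13, adjusted p = 0.00228). HMOX2, the constitutive heme oxygenase, had 31.1, 33.1, 30.2, 32.8 and 27.8 CPM in T0 and from 38.3 (m4) over a median of 42.6 to 62.2 (m3) in T1 (log2 change 0.56 ± 0.12, adjusted p = 0.00518). The 3 that fell were GPX3, MGST2 and GSTM3. GPX3, the secreted glutathione peroxidase, had 4.3, 5.89, 3.89, 4.45 and 3.49 CPM in T0 and from 1.02 (m5) over a median of 1.96 to 2.83 (m6) in T1, below all T0 libraries (log2 change -1.14 ± 0.24, adjusted p = 0.00575).

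Extracellular matrix genes were lower in T1 by median, at a log2 change of -0.57, and 6 of 55 log2 changes were above 0. Of the 55, 9 fell (TIMP2, MMP2, MMP14, PLOD1, PLOD2, COL3A1, COL5A2, POSTN and DCN) and 1 rose. The 9 became 4 without m9 or m10, 5 without m3, m7 or m11 or with no count filter, and 17 without m12. Without m3 and m12 together 12 fell. TIMP2, an inhibitor of matrix metalloproteinases, had 11.1, 13.3, 15.2, 12.6 and 15.2 CPM in T0 and from 7.27 (m3) over a median of 8.84 to 9.99 (m2) in T1, a log2 change of -0.64 ± 0.13 (adjusted p = 0.00391) without overlap. MMP14, a membrane-bound metalloproteinase, had 2.95, 3.99, 2.21, 1.17 and 2.36 CPM in T0, where m12 was lowest, and from 0.736 (m1) over a median of 1.08 to 1.58 (m11) in T1 (log2 change -1.19 ± 0.25, adjusted p = 0.00518). The gene that rose was TGFB2, a growth factor that drives matrix deposition, with 6.39, 5.22, 5.05, 3.92 and 3.94 CPM in T0, from 7.5 (m2) over a median of 10.2 to 23.6 (m6) in T1 and 11.5 in the second highest library (log2 change 1.21 ± 0.24, adjusted p = 0.00397). PRRX1, a homeobox factor of mesenchymal cells that no list held, also rose, with 5.65, 9.17, 8.05, 7.1 and 5.96 CPM in T0, from 13.7 (m5) over a median of 17.4 to 24 (m3) in T1 and a log2 change of 1.29 ± 0.17 (adjusted p = 0.000523).

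Of 7 fibroblast markers tested, 3 fell and 4 did not pass, and all 7 log2 changes were below 0. The 3 were DCN, POSTN and COL3A1, which the matrix list also holds, so the lists are not separate. The count of 3 was 1 without m3, m4, m5, m7, m8, m9, m10 or m11, with no count filter or with only T0 and T1 in the fit, and 5 without m6 or m12 or with sex as a covariate. Their summed level was 96.6 to 396 CPM in T0, highest in m9, and 67.6 to 172 CPM in T1, so the groups overlapped, and no marker was at 0 in any library. DCN lost its call in 10 of the 20 alternatives, with a highest adjusted p of 0.193, and POSTN lost its call without m8 (-0.64, adjusted p = 0.18). The 8 smooth muscle and pericyte markers summed to 136 to 490 CPM in T0 and 87.2 to 160 CPM in T1, and none was at 0. LMOD1, the leiomodin of smooth muscle, was the 1 that fell, with 11.9, 30.4, 16.2, 19.9 and 58.6 CPM in T0 and from 2.1 (m3) over a median of 5.36 to 10.8 (m5) in T1 (log2 change -2.31 ± 0.40, adjusted p = 0.00228). The part of these cell types in the matrix result was not tested. Endothelial markers (6 tested, 187 to 267 CPM in T0 and 157 to 224 in T1), macrophage markers (5 tested, 5.57 to 12.7 and 5.58 to 12.9) and adipocyte markers (4 tested, 72.9 to 250 and 87.2 to 161) had summed levels that overlapped between the groups. In these 3 lists edgeR and DESeq2 called 0 genes in the main settings, while 1 adipocyte marker fell without m1 or m12. At an unadjusted p under 0.05 in edgeR there was 1 lower adipocyte marker and 0 markers of the others.

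Several groups often followed in exercise studies are given next, beside 3.57% higher and 3.34% lower over all genes tested. Whether their counts differ from these shares was not tested. Of 28 genes of capillary growth and hypoxia edgeR and DESeq2 called 0, with 2 higher and 1 lower at an unadjusted p under 0.05 in edgeR. The count that rose was 1 without m8 or m11. VEGFA, the main capillary growth factor, averaged 33.7 ± 8.2 CPM in T0 against 39.7 ± 12.2 CPM in T1. Of 43 genes of muscle growth and atrophy 1 fell and 0 rose. The count that fell was 2 without m6 or m12 or without m3 and m12 together, and 3 without m8, in DESeq2 or with sex as a covariate, and the count that rose was 1 without m3 or m12 or without m3 and m12 together, and 2 in DESeq2. The gene that fell was ACVR2A, a receptor for activins and myostatin, with 7.74, 8.03, 6.42, 9.12 and 6.3 CPM in T0 and from 3.94 (m3) over a median of 5.24 to 6.06 (m1) in T1 (log2 change -0.50 ± 0.12, adjusted p = 0.0111). The atrophy ubiquitin ligases FBXO32 and TRIM63 did not pass, with log2 changes of 0.45 ± 0.35 (adjusted p = 0.508) and 0.17 ± 0.40 (adjusted p = 0.862). Of 13 immediate early genes edgeR called 0, with 3 higher at an unadjusted p under 0.05, and DESeq2 called 1 in each direction. With only T0 and T1 in the fit 1 rose. The mean log2 CPM of this list was 5.11 in m6 and 3.18 in m11, the next T1 library, against 2.02 to 2.84 in T0. Without m6 the median log2 change was -0.02 in place of 0.64, with 1 gene higher and 1 lower at an unadjusted p under 0.05. Of 16 inflammation genes edgeR called 0, with 1 higher and 2 lower at an unadjusted p under 0.05, and DESeq2 called 1 higher, as did edgeR without m13. Of 42 proteasome genes 1 rose, the assembly chaperone PSMG4, and its call ended without m10 (0.70, adjusted p = 0.0563) and with only T0 and T1 in the fit (0.79, adjusted p = 0.0575), while DESeq2 called 2 of the list higher.

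At the neuromuscular junction and sarcolemma 2 of 22 genes rose, the acetylcholine receptor subunits CHRNA1 and CHRNB1, and 1 fell. Over all genes tested 3.57% rose and 3.34% fell. The 2 became 0 without m9, m10 or m11 or with only T0 and T1 in the fit, and 1 without m2, m3, m5, m7 or m8 or with no count filter, and the 1 that fell became 2 without m8. ERBB2, a receptor of the neuregulin signal from nerve to muscle, was the gene that fell, with 10.6, 6.79, 4.74, 4.88 and 5.9 CPM in T0 and from 1.66 (m3) over a median of 3.09 to 3.37 (m4) in T1. All T1 libraries were below all T0 libraries (log2 change -1.19 ± 0.19, adjusted p = 0.00113). Among 10 satellite cell and regeneration genes 1 rose, SDC4, and 3 fell, MET, HGF and MYBPH. SDC4, a syndecan of satellite cells, lost its call in 11 of the 20 alternatives, among them each that left out a single T0 library and the one without m6 (1.52, adjusted p = 0.064, against 2.41 ± 0.70, adjusted p = 0.0417). MYBPH, a myosin-binding protein, had a log2 change of -2.85 ± 0.86 (adjusted p = 0.0486) that was larger without m5 (-3.55, adjusted p = 0.02) and did not pass without m13 (-2.10, adjusted p = 0.169). The 3 became 0 without m11 or m13 or with only T0 and T1 in the fit, and 1 without m2, m3, m4, m6, m8, m9 or m10, with no count filter or without m3 and m12 together.

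**Figure D4:**
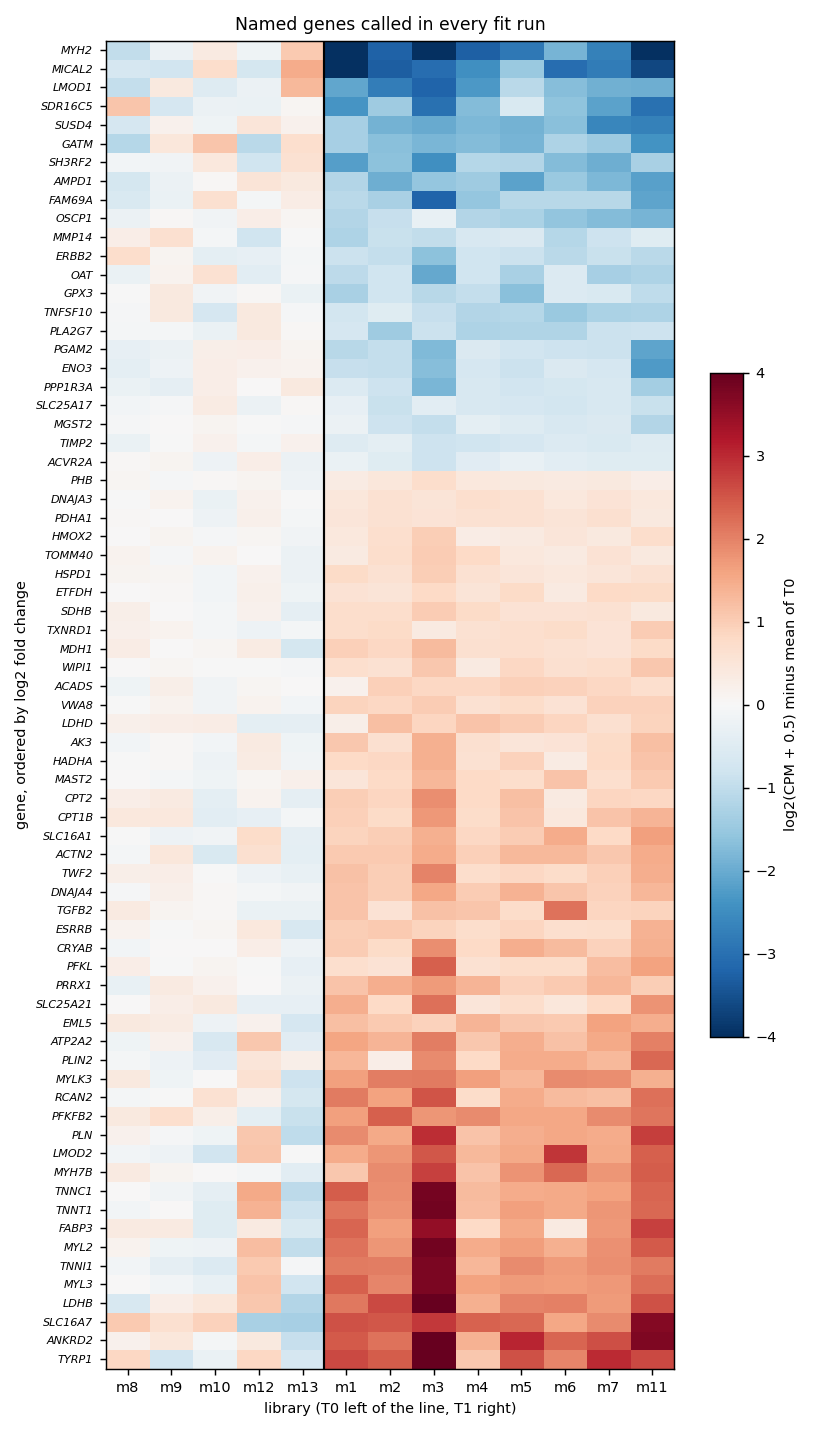
Rows are 71 of the 72 named genes called in the main fit and in all 20 alternatives, ordered by log2 change, and columns are the T0 and T1 libraries. Colour gives log2(CPM + 0.5) minus the T0 mean, red higher and blue lower; the columns m3 and m11 hold the strongest colours in many slow fibre rows.

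Of the 150 genes named by rule, 125 were called, 72 of these kept the call in all 20 alternatives and 53 lost it in at least 1. Of the called genes 0 changed sign. Among list members named above, the number of the 20 alternatives that ended the call was 8 or more for HGF (15), MYBPH (14), CAMK2G (13), GPD2 (13), SOX6 (10), PRKAB2 (10), SIRT3 (9), CHRNA1 (9), MYL1 (8) and CHRNB1 (8), each number in parentheses. Fewer alternatives ended the call of MET (5), MPC2 (5), PDK2 (5), TPM1 (5), GPD1 (3), PPP3CA (3), BDH1 (2), PDK3 (2), DLST (1), IDH3B (1), PLOD1 (1) and S100A1 (1). Several of the 72 belonged to no list. SUSD4, a complement regulator, had 11.7, 21.5, 16.8, 26.6 and 21.2 CPM in T0 and from 2.46 (m11) over a median of 4.73 to 7.25 (m1) in T1 (log2 change -2.08 ± 0.31, adjusted p = 0.00108). SH3RF2, a scaffold with a RING finger, had 5.49, 5.41, 8.21, 3.29 and 9.5 CPM in T0 and from 0.701 (m3) over a median of 1.52 to 2.47 (m4) in T1 (log2 change -1.97 ± 0.31, adjusted p = 0.00108). Both were lower in every T1 library than in any T0 library. PLA2G7, which inactivates platelet-activating factor, had 11.6, 11.7, 10.2, 16.2 and 12.8 CPM in T0 and from 4.32 (m2) over a median of 5.83 to 7.53 (m1) in T1 (log2 change -1.09 ± 0.17, adjusted p = 0.00108). OAT, ornithine aminotransferase, had 22.9, 30.5, 42.7, 20.9 and 27.1 CPM in T0 and from 6.39 (m3) over a median of 12.4 to 18.9 (m6) in T1 (log2 change -1.15 ± 0.19, adjusted p = 0.00152). These 2 genes also fell without overlap of the groups. MAST2, a microtubule-associated kinase, had 27.2, 25.6, 23.8, 28.5 and 31 CPM in T0 and from 37.8 (m1) over a median of 47.7 to 68.2 (m3) in T1, above all T0 libraries (log2 change 0.90 ± 0.14, adjusted p = 0.00108). TYRP1, known as an enzyme of pigment cells, had 2.01, 0.332, 0.684, 2.01 and 0.394 CPM in T0 and from 2.47 (m4) over a median of 7.96 to 31.7 (m3) in T1, with 10.7 in the second highest library. Low counts stand behind its T0 values, and its log2 change was 3.25 ± 0.65 (adjusted p = 0.00512).

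Levels at the end of the season are given beside these for the genes drawn at 3 time points, which were chosen with their values known. The T2 minus T0 contrast shares the T0 libraries with T1 minus T0, and 16% of the genes tested were called in it. MYLK3 had 18.6 ± 6.68 CPM in T0, 60.9 ± 11.7 in T1 and 23.1 ± 7.7 in T2 (T2 SD over 10 libraries), and its T2 minus T0 log2 change was 0.32 ± 0.22 (adjusted p = 0.32). PRRX1 had 8.48 ± 1.87 CPM in T2, a T2 minus T0 log2 change of 0.24 ± 0.16 (adjusted p = 0.313). For PFKFB2 the T2 level was 16.8 ± 8.42 CPM and the change 0.58 ± 0.30 (adjusted p = 0.19) on the same log2 scale. VWA8 had 45.8 ± 8.15 CPM in T2, a change of -0.04 ± 0.12 (adjusted p = 0.832). The scarce ESRRB had 0.722 ± 0.246 CPM in T2, with -0.35 ± 0.25 (adjusted p = 0.355) as its change. Among genes that fell in T1, SUSD4 stood at 12 ± 5 CPM in T2, a change from T0 of -0.69 ± 0.29 (adjusted p = 0.103). PLA2G7 stood at 13.4 ± 3.32 CPM, a change of 0.11 ± 0.16 (adjusted p = 0.687). Of these 7 genes 0 were called between T2 and T0, and the difference between T2 and T1 was not tested here. DNAJA4 and ERBB2 were called in both contrasts, with 49 ± 12.5 CPM in T2 for DNAJA4 (0.81 ± 0.16, adjusted p = 0.00333) and 3.92 ± 0.823 CPM for ERBB2 (-0.76 ± 0.18, adjusted p = 0.00888).

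**Figure D5:**
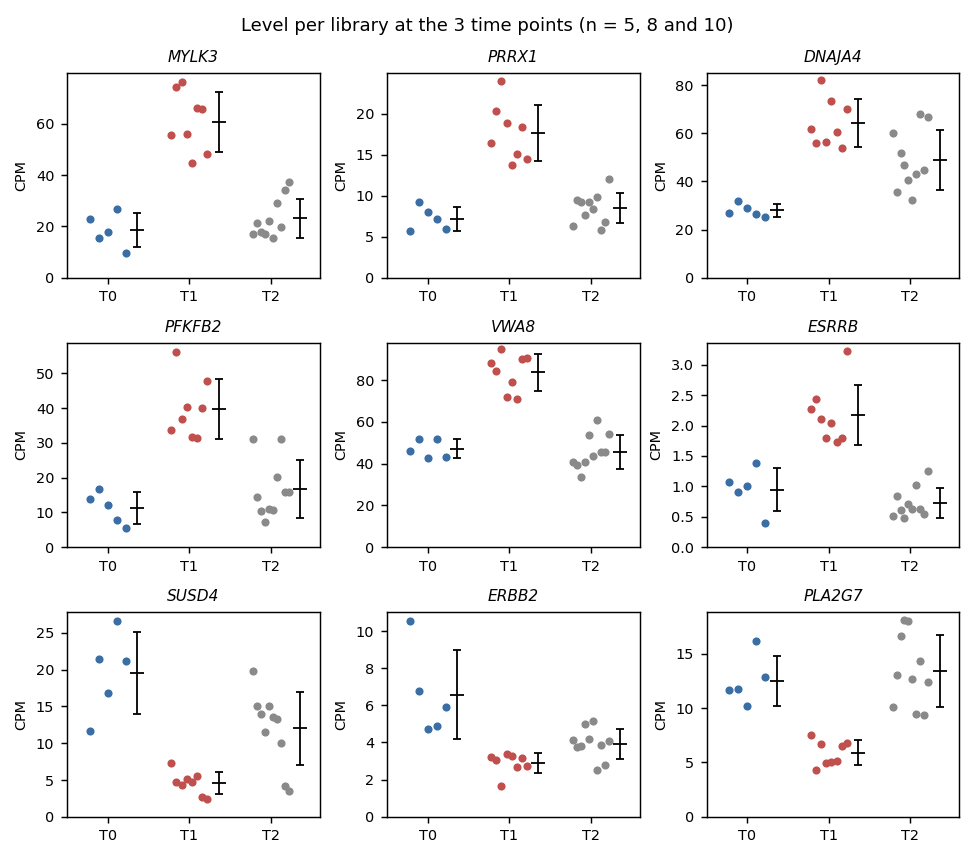
Points are single libraries in CPM (linear axes from 0) at T0, T1 and T2, and black bars are the mean ± SD over 5, 8 and 10 libraries. MYLK3, PRRX1, PFKFB2, VWA8 and ESRRB have their highest mean in T1, the DNAJA4 mean is above T0 at both later times, and SUSD4, ERBB2 and PLA2G7 have their lowest mean in T1.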

How the data were processed

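Gene counts were taken from the authors' deposited table and rounded to whole numbers. In that table they are expected counts estimated with RSEM after alignment with STAR, per the submitters' processing notes. Versions and the genome build are not given in the sources used here. Per the labels' protocols, libraries were made with a TruSeq RNA v2 kit from 300 ng of total RNA and read for 50 single-end cycles, in 6 technical repetitions. That kit does not mark strand, so reads of a gene and of an overlapping antisense partner cannot be told apart. Symbols and positions came from the annotation columns of the authors' tables, which name 8842 of the 26991 genes. SLN, PVALB and PROX1 matched no identifier. The transcript tables and the authors' comparison statistics were not used here, because the labels do not tie the group letters to time points.

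All 23 libraries entered 1 fit in edgeR 4.0.16 (R 4.3.3, limma 3.58.1), with filterByExpr set to 10 counts and a total of 15, TMM scaling and a robust quasi-likelihood test of T1 against T0. The 11545 genes kept held 99.93% of counts, and the threshold was 0.05 after Benjamini-Hochberg adjustment over them. Standard errors are the absolute log2 change divided by the square root of F. For the 4 library values the test was an exact two-sided permutation of the libraries. Tested on simulated counts for 11545 genes of T1 against T0, with 100 genes changed 2-fold and 100 changed 4-fold at a mean count of at least 30, the fit recovered 81% and 97%, with 7 false calls. The simulated counts were drawn independently for each gene, so no library stood apart across many genes as m3 and m12 did. Alternatives were median ratio size factors, no filter, DESeq2 1.42.0, only T0 and T1 in the fit, sex as a covariate, no mitochondrially encoded genes, leaving out m3 and m12, and leaving out each library.

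Genes were named by rule: the 12 largest rises and 12 largest falls with a mean log2 CPM of at least 2, the 8 rises and 8 falls with the smallest p, up to 4 called members of each list and 2 of each marker list, and a panel. The members, lists and panel were chosen with earlier results of these data known. No 2 libraries held identical counts. Marker lists of neutrophils, erythroid cells, skin and tendon had no member matched to a symbol. Plots used Python 3.11.15 and matplotlib 3.10.9. Values of some genes are not reported here.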

Additional observations from a re-analysis of the deposited data

Results flagged for a closer look

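Across the named genes and library values, 310 groups of values were tested for a library far from the others (Dixon's gap over range), and 51 had one. The cutoff is set to flag about 1 in 20 groups of normally distributed values. CPM was used without logs, and many of these genes move together across libraries. The 51 therefore does not measure an excess over chance. The T1 library m3 was the highest in 24 of them and the lowest in 4, and the T0 library m12 was the highest in 12.

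In m3, genes of slow contraction stood far above the other T1 libraries, at MYH7 66049 CPM, MYL2 21559 CPM, MYL3 6381 CPM, MYOZ2 938 CPM, S100A1 991 CPM, TNNC1 15688 CPM, TNNI1 4899 CPM and TNNT1 11201 CPM. The same held for lactate and mitochondrial genes, at CPT2 104 CPM, LDHB 2345 CPM, MPC2 132 CPM, MRPL24 49.4 CPM, MRPL37 59.3 CPM, MRPS5 52.6 CPM, PDK2 143 CPM and PHB 84.3 CPM, and for AMPD3 12.8 CPM, CHRNA1 55.5 CPM, CKM 39944 CPM, OSCP1 2.8 CPM, PFKL 41.6 CPM, PSMG4 43.8 CPM and TYRP1 31.7 CPM. Its mean log2 CPM of slow minus fast sarcomere genes was 4.77, the highest of T1. Library m3 was far below the others in ACVR2A 3.94 CPM, ERBB2 1.66 CPM and MET 2.02 CPM, and it had 10214 genes with at least 10 counts.

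In m12, slow sarcomere and thin filament genes stood far above the other T0 libraries, at LMOD2 539 CPM, MYH7 18933 CPM, MYL3 1033 CPM, TNNC1 3114 CPM, TNNI1 744 CPM and TNNT1 2039 CPM. So did CHRNA1 23.9 CPM, COX1 249587 CPM, IDH3B 135 CPM, PDK4 40.6 CPM, PPARD 4.24 CPM and SLC16A1 129 CPM. T0 library m8 was far above the rest in POSTN 13 CPM and SDR16C5 18.6 CPM.

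Other T1 libraries stood apart in fewer genes. Library m6 was highest in PDK4 228 CPM, SDC4 58.5 CPM, TGFB2 23.6 CPM and TRIM63 101 CPM, m5 in MICAL2 10.8 CPM, MYBPH 59.97 CPM and SDR16C5 5.34 CPM, and m11 in SLC16A7 38.7 CPM. Library m1 was lowest in ACADS 47.5 CPM. Without m3 and m12 together the log2 change of MYH7 was 2.17, of TNNC1 2.18, of PFKL 0.97 and of TYRP1 2.99, each still called in edgeR. The call of CHRNB1 ended there (0.69, edgeR adjusted p = 0.0559).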

How the results depend on the processing

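Of the 125 called genes named, 72 kept the call in all 20 alternatives and 53 lost it in at least 1. Median ratio size factors, sex as a covariate and leaving out the mitochondrially encoded genes kept the number of genes called between 796 and 871, against 798. DESeq2 called 1152 genes, 650 of them higher, with 11 Z-disc, 23 respiratory chain and 15 import genes that rose. Without the filter, 2 fast sarcomere and 5 matrix genes fell. With only T0 and T1 in the fit, 249 genes were lower, 1 fast sarcomere and 5 glycolysis genes fell, and 3 calcium, 2 pyruvate dehydrogenase, 5 tricarboxylic acid cycle and 4 respiratory chain genes rose. With sex as a covariate 15 respiratory chain genes rose. Without m3 and m12, 12 Z-disc, 3 fatty acid uptake and 17 respiratory chain genes rose. The cause of these shifts was not tested, except that fewer samples entered the fits that leave libraries out.

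Leaving out each library in turn gave 346 to 904 called genes, 204 to 462 higher and 142 to 442 lower. Among genes that rose the ranges were 7 to 10 for slow sarcomere, 5 to 12 for Z-disc, 3 to 5 for calcium, 4 to 6 for lactate, 1 to 5 for pyruvate dehydrogenase, 1 to 10 for the tricarboxylic acid cycle, 10 to 13 for beta-oxidation and 4 to 9 for fatty acid uptake. They were 1 to 17 for the respiratory chain, 3 to 9 for import, 5 to 7 for chaperones and 5 to 10 for antioxidants. Among genes that fell they were 1 to 6 for fast sarcomere, 2 to 9 for glycolysis, 1 to 7 for glycogen and 4 to 17 for matrix. The T1 minus T0 difference ranged from 4743379 to 6063166 in total counts, from 7.45 to 11.9 percentage points in mitochondrial share and from 7.62 to 11.3 in the share of the top 10 genes. In genes with at least 10 counts it ranged from -550 to 29.6, the last being a change of sign without m8.

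No paired analysis was possible because the labels do not say whether 1 horse gave more than 1 library. Depth limits the low genes: with total counts of 12604125 to 23641809 in T0 and T1, values near 1 CPM rest on few reads.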
